A study of Homo sapiens with 6 samples.

Results

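The expression of *CTSA* and 41 other genes of the lysosome was followed by RNA-seq in BxPC-3, an established cell line from a human pancreatic cancer. The 42 genes were chosen by symbol from 26255 symbols measured in every library. They comprise the 3 components of the *CTSA* complex, 9 proteases, 8 glycosidases, 5 sulfatases, 8 lipid hydrolases and luminal cofactors, 7 membrane proteins and 2 transcription factors. Of these, 39 genes passed a filter at a mean of 1 FPKM and were tested, and *CTSF*, *PSAP* and *TFEB* did not pass. The 6 libraries formed 3 groups of 2: Parent cells without transfection, cells that received the negative control NC-1, and cells that received miR-4711-5p, with RNA taken at 36 h. All 6 came from 1 cell line. The labels number the libraries of a group 1 and 2 but do not say whether they were separate cultures, so the p-values measure only the spread between these libraries, which may be technical. The values are FPKM as calculated by the authors, that is, fragments scaled to gene length and to the size of the library. FPKM is a level per length, so levels of different genes can be compared.

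Lysosomes are acidic organelles in which hydrolases degrade proteins, glycans and lipids delivered by endocytosis and autophagy. *CTSA* encodes cathepsin A, also called protective protein, a serine carboxypeptidase that forms a multienzyme complex with the sialidase NEU1 and the beta-galactosidase GLB1. Within this complex it keeps NEU1 active and protects GLB1 from degradation, and loss of CTSA causes galactosialidosis. Many lysosomal genes carry an E-box element near their start site that is bound by TFEB and TFE3, transcription factors held in the cytoplasm by mTORC1 signalling when nutrients are plentiful.

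The cell type was checked against marker genes. The 7 epithelial and ductal markers lay between 14.6 and 1842 FPKM, whereas 4 of 4 leukocyte, 4 of 5 macrophage and 4 of 5 fibroblast markers stayed under 0.5 FPKM in every library; *CD14* and *COL1A1* were the highest of the remainder, at up to 2.17 and 2.35 FPKM. Replicate libraries correlated at 0.985 to 0.990 (Pearson, across genes on the log2 scale). The number of reads is unknown, and relative depth, read from the steps between low values, ranged from 0.751 to 1.21 of that of Parent 1. In bulk RNA, a smaller share of cells with a transcript and less transcript per cell cannot be told apart.

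The guide strand of miR-4711-5p has its seed, bases 2 to 8, near the 5′ end. It is shown because the sites described here are matches to those bases, given in capitals (RefSeq, GRCh38.p14, chromosome 1, 59733269 to 59733291, minus strand):
miR-4711-5p: uGCAUCAGgccagaagacaugag
The 3′ UTR of *CTSA* held a pair of matches, an 8mer starting at position 26 and a 7mer-A1 starting at position 255 of a canonical 3′ UTR of 370 nt. An 8mer pairs with the whole seed and has an A opposite base 1, a 7mer-m8 pairs with the whole seed only, and a 7mer-A1 lacks the pair at base 8. Both lie in the last part of *CTSA* on chromosome 20 (GRCh37, plus strand), in 8 of 9 coding transcripts (GENCODE v44 lifted to GRCh37). *SMPD1*, on chromosome 11, had a 7mer-m8 in its 3′ UTR. The matched bases are in capitals, with the transcript written as DNA, 5′ to 3′:
CTSA 8mer, chr20:44527115-44527122: accagctccacggcCTGATGCAgcccctc
CTSA 7mer-A1, chr20:44527344-44527350: aagaatgccctttaTGATGCActgattcc
SMPD1 7mer-m8, chr11:6416180-6416186: actgctgctgcgacCTGATGCtgccagtc

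*CTSA* was among the more abundant lysosomal genes of the control cells and fell strongly with miR-4711-5p. Its level was 91.9 and 87.9 FPKM in the Parent libraries, 107 and 103 FPKM in the NC-1 libraries, and 36.8 and 36.96 FPKM in the miR-4711-5p libraries. The miR-4711-5p libraries were therefore the lowest of the 6 and did not overlap with either control. The mean FPKM was 2.85-fold lower than with NC-1 and 2.44-fold lower than in Parent. On the log2(FPKM + 1) scale used for all tests, the difference was -1.49 ± 0.05 (SE) against NC-1 (limma adjusted p = 3.75e-06) and -1.26 ± 0.05 against Parent (limma adjusted p = 4.73e-06). *CTSA* was also slightly higher with NC-1 than in Parent, by 0.22 (limma adjusted p = 0.0132), a call that was lost without Parent 2 (0.19, limma adjusted p = 0.057) or without NC-1 1 (0.19, limma adjusted p = 0.0664); over the libraries left out in turn, this adjusted p ranged from 0.0333 to 0.0664. Among the 42 genes ordered by mean FPKM, *CTSA* ranked 9 in Parent and in NC-1 cells and 16 with miR-4711-5p. *CTSA* spans chr20:44518783-44527588 on the plus strand of GRCh37, and 54.1% of its canonical 3′ UTR, from position 171 onwards, is shared with exons of *PLTP* on the opposite strand. The 8mer lies outside the shared stretch and the 7mer-A1 inside it. *PLTP*, which encodes a phospholipid transfer protein, was at 129 and 125 FPKM in Parent, 98.4 and 105 FPKM with NC-1, and 77.0 and 79.9 FPKM with miR-4711-5p. Its difference against NC-1 was -0.37 (limma adjusted p = 0.00124). *NEURL2*, which shares exonic bases with *CTSA* on the opposite strand as well, lay between 1.45 and 2.07 FPKM. The library kit keeps strand, but whether strand was used in counting is not given in the sources used here. The part of these overlaps in the FPKM of *CTSA* was therefore not tested. By quantitative PCR, the study also reported lower *CTSA* in pancreatic cancer cells given the miRNA. The *CTSA* primer pair matched chr20:44520355-44520587 (GRCh37), outside the 3′ UTR that shares bases with *PLTP*.

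Of the partners of *CTSA*, *NEU1* rose and *GLB1* did not pass the test. *NEU1*, the lysosomal sialidase, was at 22.1 and 22.7 FPKM in Parent, 22.1 and 22.4 FPKM with NC-1, and 28.4 and 31.7 FPKM with miR-4711-5p. Both miR-4711-5p libraries were above the 4 controls. The rise in *NEU1* was 1.35-fold against NC-1 (log2 difference 0.42 ± 0.06 SE, limma adjusted p = 0.00193) and 1.34-fold against Parent (0.41 ± 0.06, limma adjusted p = 0.00192). *NEU1* did not pass the test between NC-1 and Parent (-0.01, limma adjusted p = 0.911). *GLB1*, the lysosomal beta-galactosidase, was at 33.2 and 34.1 FPKM in Parent, 35.1 and 33.9 FPKM with NC-1, and 31.6 and 32.8 FPKM with miR-4711-5p. The *GLB1* values of the 3 groups lay within a few FPKM of each other. Its log2 difference was -0.10 against NC-1 (95% interval -0.21 to 0.02, limma adjusted p = 0.151) and -0.06 against Parent (-0.17 to 0.05, limma adjusted p = 0.336). A change of *GLB1* larger than those intervals was not seen, and a change within them could not be told from none.

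**Figure D1:**
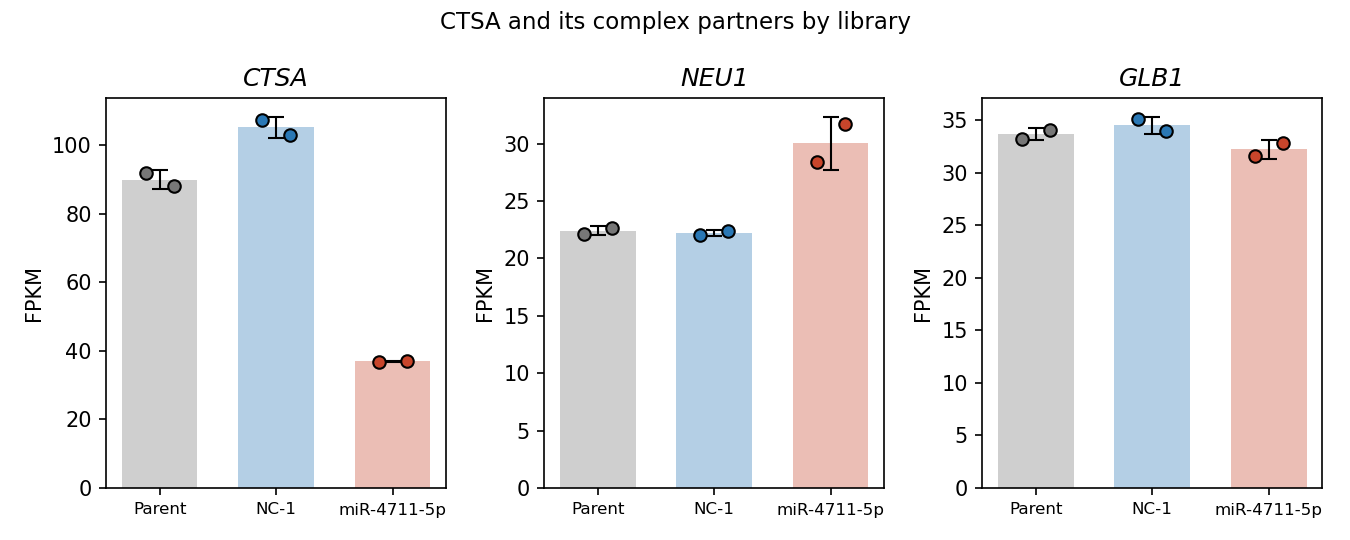
FPKM of *CTSA*, *NEU1* and *GLB1* in the 3 groups; points are the 2 libraries of a group, bars their mean and error bars the SD. *CTSA* drops to about 37 FPKM with miR-4711-5p, *NEU1* rises to 28.4 and 31.7 FPKM and *GLB1* stays between 31.6 and 35.1 FPKM.

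Ratios within a library do not depend on how the library was scaled. The ratio of *CTSA* to *NEU1* was 4.15 and 3.88 in Parent, 4.87 and 4.60 with NC-1, and 1.30 and 1.17 with miR-4711-5p. The ratio of *CTSA* to *GLB1* was 2.76 and 2.58 in Parent, 3.06 and 3.03 with NC-1, and 1.17 and 1.13 with miR-4711-5p. The FPKM of *CTSA* was thus 1.13 to 1.30 times that of its partners with miR-4711-5p, compared with 2.58 to 4.87 times in the controls. The part of the *PLTP* overlap in these ratios was not tested. The ratio of *NEU1* to *GLB1* was 0.666 and 0.666 in Parent, 0.629 and 0.660 with NC-1, and 0.900 and 0.965 with miR-4711-5p. With 2 libraries against 2, an exact permutation test cannot give a p below 0.33, so these ratios are given without a test.

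Of the 39 lysosomal genes tested, 11 were lower with miR-4711-5p than with both NC-1 and Parent, which is 28.2% against 15.4% of all 12040 genes tested. These were *CTSA*, *CTSD*, *TPP1*, *HEXA*, *MANBA*, *SMPD1*, *GM2A*, *NPC2*, *GRN*, *LAMP1* and *CD63*. Another 3 genes, *NEU1*, *IDS* and *SGSH*, were higher than both, which is 7.69% against 10% of all genes (1207 of 12040). Against NC-1 alone, 14 of the 39 were lower and 4 higher, where 21.2% of all genes were lower and 18.4% higher, or 39.6% in either direction. Against Parent, 13 were lower and 8 higher, where 24.7% of all genes were lower and 18.7% higher (43.4% in either). The median log2 difference of the 39 genes was -0.106 against NC-1 (0.004 over all genes) and -0.092 against Parent (-0.013 over all genes). The median of the 39 depended on scaling: with every library set to the same FPKM sum, it was -0.059 against NC-1 and 0.046 against Parent, where the median of all genes was 0.0556 and 0.115. Without *CTSA*, the counts were 13 lower and 4 higher against NC-1, with a median of -0.101. The called changes were mostly small: only 4 of the 14 decreases and 1 of the 4 increases against NC-1 reached 1.5-fold on the log2(FPKM + 1) scale. The share of called changes over all genes that reached this limit was not counted.

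**Figure D2:**
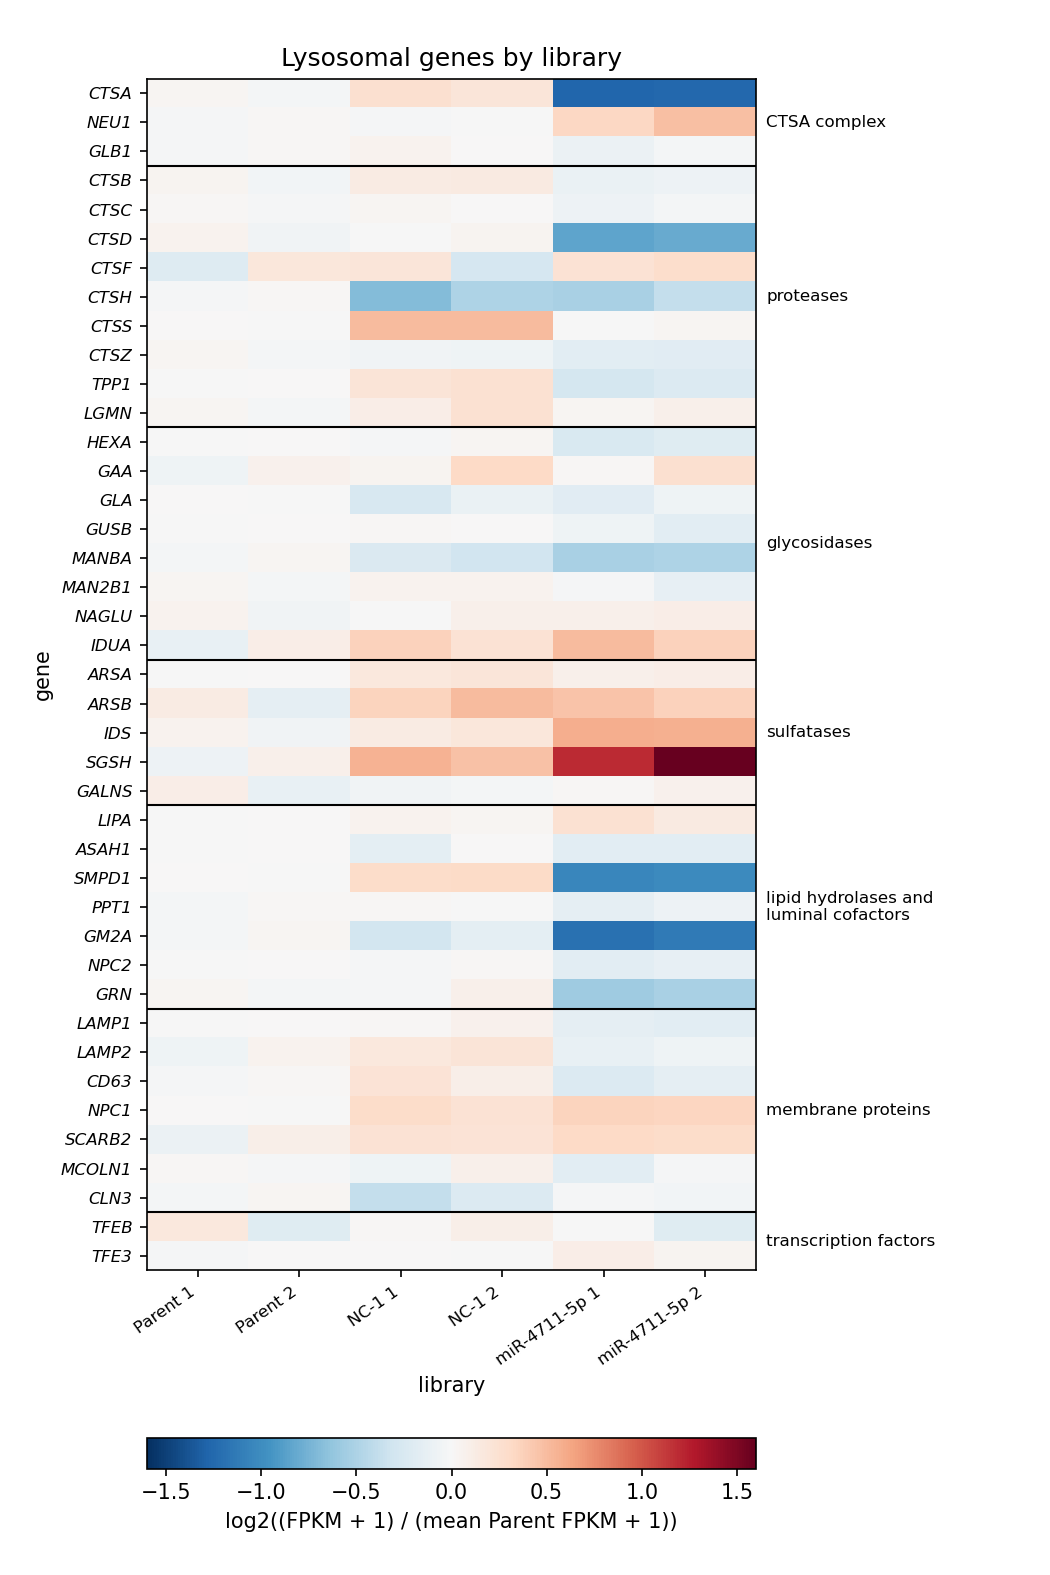
Level of 41 lysosomal genes in each of the 6 libraries, as the log2 ratio of FPKM + 1 to the mean of Parent, grouped by role; *PSAP*, listed at 0 in 5 libraries, is left out. Blue rows for *CTSA*, *CTSD*, *SMPD1*, *GM2A* and *GRN* appear in both miR-4711-5p libraries, and *SGSH* and *IDS* are red there.

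Among the proteases, 4 of the 8 tested were lower than with NC-1 (21.2% of all genes were) and 4 were lower than in Parent (24.7% of all genes were), and *CTSD* and *TPP1* were lower than both. *CTSD* encodes cathepsin D, the main aspartic protease of the lysosome and, with a mean of 540 FPKM in Parent, the second most abundant of the 42 genes. It was at 563 and 517 FPKM in Parent, 538 and 555 FPKM with NC-1, and 301 and 310 FPKM with miR-4711-5p. The miR-4711-5p libraries stood far below the 4 controls, with a mean 1.79-fold lower than NC-1 (-0.84 ± 0.05 SE, limma adjusted p = 3.29e-05) and 1.77-fold lower than Parent (-0.82, limma adjusted p = 3.09e-05). *TPP1*, a tripeptidyl peptidase whose loss causes a neuronal ceroid lipofuscinosis, was at 30.7 and 31.2 FPKM in Parent, 35.98 and 36.9 FPKM with NC-1, and 25.4 and 26.4 FPKM with miR-4711-5p. It was lowest with miR-4711-5p and highest with NC-1 (-0.48, limma adjusted p = 0.00033 against NC-1, and -0.25, limma adjusted p = 0.00521 against Parent). For *TPP1*, scaling to the same FPKM sum ended the call against Parent (limma adjusted p = 0.086).

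The other proteases differed against 1 control or neither. *CTSS*, cathepsin S, was at 14.8 FPKM in each NC-1 library and between 10.05 and 10.4 FPKM in the Parent and miR-4711-5p libraries. Its call against NC-1 (-0.50, limma adjusted p = 0.000436) thus went with a level close to Parent (0.01, limma adjusted p = 0.879). *CTSH*, cathepsin H, was at 273 and 280 FPKM in Parent but at 171 to 212 FPKM in the 4 transfected libraries, so that its call against Parent (-0.45, limma adjusted p = 0.00269) was shared by NC-1 (-0.59, limma adjusted p = 0.00256). *CTSB*, cathepsin B, was lower than NC-1 only (-0.23, limma adjusted p = 0.00761), a call lost without miR-4711-5p 1 (limma adjusted p = 0.0564), and *CTSZ*, cathepsin Z, was lower than Parent only (-0.18, limma adjusted p = 0.0124), a call lost without Parent 1 or either miR-4711-5p library and with the same FPKM sum (limma adjusted p = 0.439). *CTSC*, which activates granule serine proteases, and *LGMN*, an asparaginyl endopeptidase, passed neither test, with log2 differences between -0.12 and 0.05. *CTSF* was at 0.426 to 1.10 FPKM and was not tested.

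Of the 8 glycosidases, *HEXA* and *MANBA* were lower than both controls, where 15.4% of all genes were. *HEXA*, the alpha subunit of beta-hexosaminidase, was at 79.5 and 79.9 FPKM in Parent, 79.0 and 81.7 FPKM with NC-1, and 67.3 and 69.3 FPKM with miR-4711-5p. Its decrease was small but exceeded the spread between replicates (-0.23, limma adjusted p = 0.00501 against NC-1, and -0.22, limma adjusted p = 0.00561 against Parent, the latter call being lost at the same FPKM sum, limma adjusted p = 0.148). *MANBA*, beta-mannosidase, was at 18.7 and 19.5 FPKM in Parent, 16.2 and 15.2 FPKM with NC-1, and 13.1 and 13.3 FPKM with miR-4711-5p. *MANBA* was thus lower with NC-1 than in Parent and lower again with miR-4711-5p (-0.24, limma adjusted p = 0.0131 against NC-1, and -0.50, limma adjusted p = 0.000449 against Parent). Its call against NC-1 was lost without NC-1 1 (limma adjusted p = 0.0733), miR-4711-5p 1 (0.0829) or miR-4711-5p 2 (0.0623). *IDUA*, the iduronidase of heparan and dermatan sulfate breakdown, rose from 1.58 and 2.02 FPKM in Parent to 2.97 and 2.62 FPKM (0.44, limma adjusted p = 0.0198), with NC-1 libraries at 2.63 and 2.30 FPKM. This call was lost without Parent 1 (limma adjusted p = 0.0919), miR-4711-5p 1 (0.118) or miR-4711-5p 2 (0.051). The remaining 5, *GAA*, *GLA*, *GUSB*, *MAN2B1* and *NAGLU*, passed neither test. *GUSB*, a common reference gene, was at 19.8 to 22.5 FPKM, and its pseudogene *GUSBP1* was at 5.69 to 7.99 FPKM, so reads of these copies may be split between them.

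Of the 5 sulfatases, *IDS* and *SGSH* were higher than both controls, where 10% of all genes were. These enzymes remove sulfate from glycosaminoglycans and sulfolipids. *IDS*, iduronate 2-sulfatase, was at 69.9 and 64.6 FPKM in Parent, 74.0 and 76.1 FPKM with NC-1, and 101 and 100.3 FPKM with miR-4711-5p. All 4 controls lay below the miR-4711-5p libraries, and the rise was 1.34-fold over NC-1 (0.42 ± 0.05 SE, limma adjusted p = 0.000754) and 1.49-fold over Parent (0.57, limma adjusted p = 0.00016). *SGSH*, the sulfamidase of heparan sulfate breakdown, was at 0.445 and 0.617 FPKM in Parent, 1.25 and 1.12 FPKM with NC-1, and 2.50 and 3.63 FPKM with miR-4711-5p. Its levels were low and did not overlap between the 3 groups (0.88 ± 0.16 SE, limma adjusted p = 0.00431 against NC-1, and 1.40, limma adjusted p = 0.000509 against Parent). *ARSB*, which acts on dermatan and chondroitin sulfate, was higher than Parent only (0.42, limma adjusted p = 0.0296), and NC-1 was higher than Parent by a similar 0.44 (limma adjusted p = 0.0384); the first call was lost without Parent 2, miR-4711-5p 1 or miR-4711-5p 2 (limma adjusted p = 0.0795 to 0.143). *ARSA* and *GALNS* passed neither test. Exons of another coding model on the same strand cover 75% of the exonic bases of *IDS*, and a pseudogene, *IDSP1*, is annotated, so its reads may be shared. Genes with FPKM values that share exonic bases with other members called against both controls were *CARD14* (0.0420 to 0.439 FPKM) and *SLC26A11* (up to 0.311 FPKM) for *SGSH*, *HEXA-AS1* (0.111 to 0.384 FPKM) for *HEXA*, and *ISCA2* (17.1 to 24.5 FPKM) and *MIR4709* (listed at 0) for *NPC2*.

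Of the 7 lipid hydrolases and cofactors tested, 4 were lower than both controls, where 15.4% of all genes were. *SMPD1*, acid sphingomyelinase, was at 7.31 and 7.22 FPKM in Parent, 9.10 and 9.24 FPKM with NC-1, and 3.003 and 3.09 FPKM with miR-4711-5p. The mean of *SMPD1* was 3.01-fold lower than NC-1 (-1.33 ± 0.06 SE, limma adjusted p = 1.26e-05) and 2.38-fold lower than Parent (-1.03, limma adjusted p = 2.87e-05). *GM2A*, the activator protein that presents ganglioside GM2 to beta-hexosaminidase A, was at 27.6 and 28.7 FPKM in Parent, 22.8 and 25.2 FPKM with NC-1, and 11.8 and 12.3 FPKM with miR-4711-5p. The miR-4711-5p libraries of both genes were well clear of all controls, and *GM2A* was 1.99-fold lower than NC-1 (-0.94, limma adjusted p = 5.22e-05) and 2.34-fold lower than Parent (-1.16, limma adjusted p = 1.82e-05). *GRN*, which encodes progranulin, was at 160 and 152 FPKM in Parent, 154 and 166 FPKM with NC-1, and 105 and 109 FPKM with miR-4711-5p. It fell to 105 and 109 FPKM from a level shared by both controls (-0.57, limma adjusted p = 0.000219 against NC-1, and -0.54, limma adjusted p = 0.000252 against Parent). *NPC2*, a luminal cholesterol carrier, was at 241 and 243 FPKM in Parent, 238 and 246 FPKM with NC-1, and 216 and 221 FPKM with miR-4711-5p. The change in *NPC2* was small (-0.15 against each, limma adjusted p = 0.0237 against NC-1 and 0.0214 against Parent) and did not hold when 1 library was left out: against NC-1 the call was lost without NC-1 2, miR-4711-5p 1 or miR-4711-5p 2 (limma adjusted p up to 0.134), and against Parent without any 1 of the 4 libraries compared (up to 0.128). At the same FPKM sum, neither call remained (-0.09, limma adjusted p = 0.0937, and -0.0073, limma adjusted p = 0.889).

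The remaining lipid genes were called against 1 control or neither, or were not tested. *LIPA*, lysosomal acid lipase, was at 26.0 and 26.0 FPKM in Parent, 27.0 and 26.6 FPKM with NC-1, and 31.0 and 28.8 FPKM with miR-4711-5p. It was called against Parent only (0.19, limma adjusted p = 0.0209), and this call was lost without Parent 1, Parent 2 or miR-4711-5p 1 (limma adjusted p up to 0.14). *LIPA* shares a few exonic bases with *IFIT2* and *IFIT3* on the opposite strand, interferon-induced genes that rose to 67.5 and 60.4 FPKM and to 128 and 112 FPKM with miR-4711-5p; the part of these reads in the value of *LIPA* was not tested. *ASAH1*, acid ceramidase, and *PPT1*, palmitoyl-protein thioesterase, passed neither test (-0.17 to -0.09). *PSAP*, the saposin precursor, was listed at 0 in 5 libraries and at 0.0229 FPKM in Parent 1, and no statement on its expression is made.

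Membrane proteins moved by small amounts and in both directions. *LAMP1*, the main glycoprotein of the lysosomal membrane, was at 140.1 and 141 FPKM in Parent, 143 and 147 FPKM with NC-1, and 127 and 125 FPKM with miR-4711-5p. *LAMP2*, which also takes part in chaperone-mediated autophagy, was at 52.6 and 57.4 FPKM in Parent, 62.0 and 63.4 FPKM with NC-1, and 50.7 and 52.2 FPKM with miR-4711-5p. *CD63*, a tetraspanin of late endosomes and exosomes and the most abundant of the 42 genes, was at 647 and 660 FPKM in Parent, 761 and 696 FPKM with NC-1, and 563 and 592 FPKM with miR-4711-5p. All 3 were lowest in the miR-4711-5p libraries, though for *LAMP2* only narrowly (52.2 FPKM against 52.6 FPKM in Parent 1). The share of all genes with this order was not counted. Against NC-1, the differences were -0.20 for *LAMP1* (limma adjusted p = 0.00732), -0.28 for *LAMP2* (0.00604) and -0.33 for *CD63* (0.00255). The calls of *LAMP1* without miR-4711-5p 2 (limma adjusted p = 0.056) and of *LAMP2* without miR-4711-5p 1 (0.0518) were lost. Against Parent, *LAMP1* differed by -0.15 (limma adjusted p = 0.0192) and *CD63* by -0.18 (0.0307), calls that were lost without any 1 of the 4 libraries compared (limma adjusted p up to 0.103 and 0.182), and *LAMP2* by -0.09 (0.205). At the same FPKM sum, the differences from Parent were -0.012 for *LAMP1* (limma adjusted p = 0.822) and -0.038 for *CD63* (0.558).

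The membrane proteins *NPC1* and *SCARB2* were called higher in both transfected groups than in Parent. Over all genes, 18.7% were higher with miR-4711-5p and 12.1% with NC-1, and the share higher in both was not counted. *NPC1*, the cholesterol exporter of the limiting membrane, was at 27.8 and 27.6 FPKM in Parent, 34.3 and 32.5 FPKM with NC-1, and 35.7 and 35.3 FPKM with miR-4711-5p. *SCARB2*, the receptor that carries glucocerebrosidase to the lysosome, was at 26.0 and 29.6 FPKM in Parent, 32.8 and 32.5 FPKM with NC-1, and 35 and 34.3 FPKM with miR-4711-5p. The difference from Parent was 0.35 for *NPC1* (limma adjusted p = 0.00126) and 0.31 for *SCARB2* (0.00832, lost without miR-4711-5p 1 at 0.062). Neither passed against NC-1 (0.08 each, limma adjusted p = 0.201 and 0.346). NC-1 was higher than Parent by 0.26 for *NPC1* (limma adjusted p = 0.009) and by 0.23 for *SCARB2* (0.0424). The NC-1 call of *SCARB2* was lost without most single libraries, without a filter and when only the 2 groups were fitted, among other settings. *CLN3*, a membrane protein lost in juvenile neuronal ceroid lipofuscinosis, was instead lower with NC-1 than in the other groups, at 13.5 and 15.1 FPKM against 17.2 to 18.2 FPKM. Its rise over NC-1 (0.27, limma adjusted p = 0.0148) was lost without NC-1 1, miR-4711-5p 1 or miR-4711-5p 2 (limma adjusted p = 0.0668 to 0.092). *MCOLN1*, the calcium channel TRPML1, passed neither test at 4.30 to 5.33 FPKM.

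The transcription factors of the pathway did not pass a test. *TFE3* was at 19.9 and 20.3 FPKM in Parent, 20.3 and 20.02 FPKM with NC-1, and 21.8 and 20.8 FPKM with miR-4711-5p. The *TFE3* difference was 0.07 against NC-1 (95% interval -0.04 to 0.19, limma adjusted p = 0.284) and 0.08 against Parent (limma adjusted p = 0.26), and it passed against Parent only at the same FPKM sum (0.21, limma adjusted p = 0.0162). *TFEB* was at 0.968 and 0.537 FPKM in Parent, 0.781 and 0.865 FPKM with NC-1, and 0.741 and 0.528 FPKM with miR-4711-5p, with a mean below the filter. The Parent values spanned those of NC-1, and the lower miR-4711-5p value was just below the lower Parent value (0.528 against 0.537 FPKM). Both miR-4711-5p libraries lay below the NC-1 libraries, and no test was made. The activity of both factors depends on their location in the cell, which RNA levels do not measure.

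**Figure D3:**
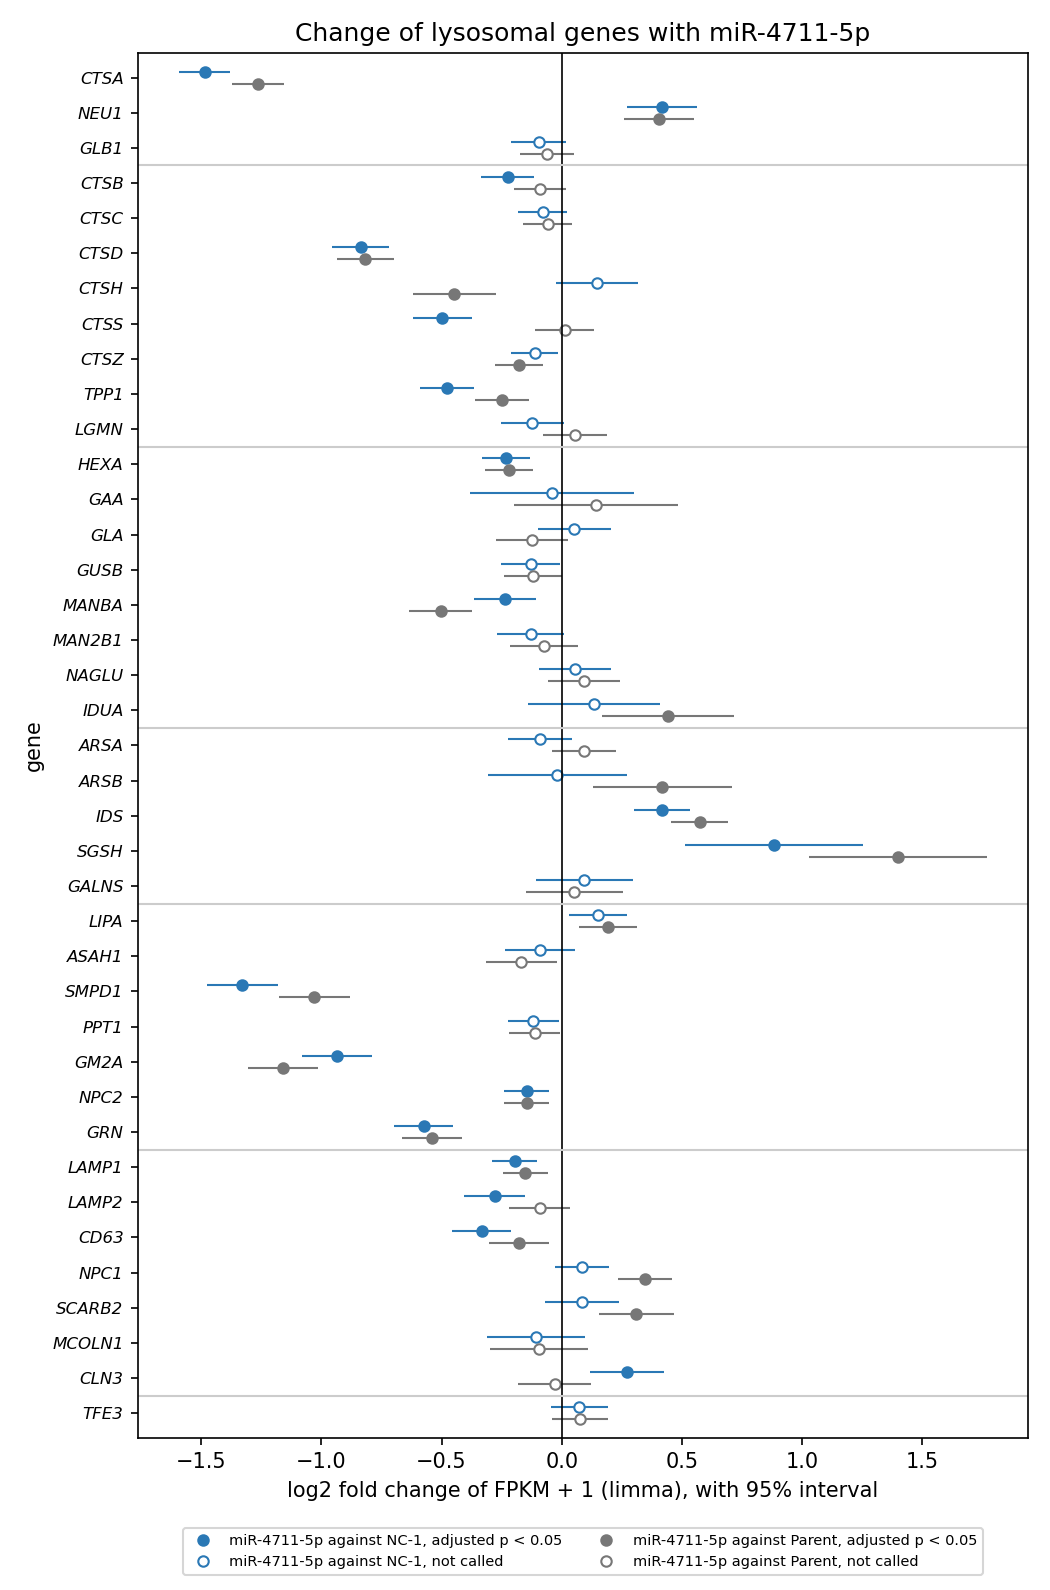
limma log2 fold change of FPKM + 1 with its 95% interval for the 39 lysosomal genes tested, with NC-1 (blue) or Parent (grey) as the reference for miR-4711-5p; filled points passed an adjusted p of 0.05. *CTSA*, *SMPD1*, *GM2A* and *CTSD* lie farthest to the left in both comparisons and *SGSH* farthest to the right.

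Between NC-1 and Parent, 33.3% of the lysosomal genes tested were called, near the 27.2% of all genes. Of the 39 genes, 9 were higher and 4 lower with NC-1 than in Parent, where 12.1% of all genes were higher and 15.1% lower (27.2% in either direction). The median difference was 0.038, against -0.01 over all genes. The 9 higher genes were *CTSA*, *CTSS*, *TPP1*, *ARSB*, *SGSH*, *SMPD1*, *LAMP2*, *NPC1* and *SCARB2*, and the 4 lower genes were *CTSH*, *MANBA*, *GM2A* and *CLN3*. Of these 13 calls, *CTSS*, *CTSH* and *NPC1* kept theirs without any 1 library, and the other 10 lost it without at least 1. *CTSH* fell by 0.59 and *CTSS* rose by 0.51 (limma adjusted p = 0.00155) on the log2 scale. For *CTSA*, *TPP1* and *SMPD1*, the NC-1 level lay above Parent and the miR-4711-5p level below it, so their difference against NC-1 was larger than that against Parent. The comparisons share libraries, and each is given with its own values.

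A further 88 lysosomal genes in 4 lists, of which 74 were tested, were described by the same test. Against NC-1, 19 of the 74 were lower (25.7%, against 21.2% of all genes) and 13 higher (17.6%, against 18.4%), with a median of -0.004. Against Parent, 17 were lower (23.0%, against 24.7% of all genes) and 15 higher (20.3%, against 18.7%), with a median of 0.012. These shares were close to those of all genes. In the V-ATPase, the proton pump that acidifies the lysosome, 7 of 17 tested subunits were lower and 6 higher than with NC-1, so that 76.5% were called, against 39.6% of all genes. The catalytic subunit *ATP6V1A* fell from 29.3 and 28.8 FPKM with NC-1 to 19.9 and 18.5 FPKM (-0.57, limma adjusted p = 0.000225), with Parent at 27.6 and 28.1 FPKM (-0.52, limma adjusted p = 0.00031). *ATP6V1D* differed by -0.39 from NC-1 (limma adjusted p = 0.00208) and by -0.44 from Parent (0.0011), and *ATP6AP2*, an accessory subunit, by -0.33 (0.00297) and -0.26 (0.00697, lost without miR-4711-5p 1 at 0.0557).

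In mannose 6-phosphate sorting, which tags and carries newly made hydrolases to the lysosome, 4 of 14 genes were lower (28.6%, against 21.2% of all genes) and 1 higher (7.14%, against 18.4%) than with NC-1. *SORT1*, the sorting receptor sortilin, differed by -0.50 from NC-1 and -0.47 from Parent (limma adjusted p = 0.000929 and 0.0011), and *AP1S1*, a subunit of the AP-1 adaptor, by -0.46 and -0.49 (0.000417 and 0.000276). *GGA1*, another adaptor, differed by 0.34 and 0.38 (limma adjusted p = 0.00652 and 0.00372), the first of which was lost without miR-4711-5p 1 (0.0558). Among regulators of TFEB by mTORC1 and folliculin, 2 of 14 were lower (14.3%, against 21.2% of all genes) and 1 higher (7.14%, against 18.4%) than with NC-1. Against Parent, *LAMTOR2* differed by -0.41 (limma adjusted p = 0.00132), *MTOR* by -0.25 (0.00453) and *FLCN* by 0.27 (0.0138). With 1 library left out in turn, these differences ranged from -0.45 to -0.36, from -0.26 to -0.24 and from 0.226 to 0.315. The *FLCN* call against Parent was lost without Parent 2 or without miR-4711-5p 1. The *MTOR* call against Parent was lost at the same FPKM sum (limma adjusted p = 0.0758). Against NC-1, *LAMTOR2* and *MTOR* differed by -0.27 and -0.21, and *FLCN* by 0.26 (limma adjusted p = 0.00863, 0.0094 and 0.0186). None of these 3 calls held without miR-4711-5p 1 (limma adjusted p = 0.0686, 0.063 and 0.126).

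Among the other hydrolases and membrane proteins, 6 of 29 were lower (20.7%, against 21.2% of all genes) and 5 higher (17.2%, against 18.4%) than with NC-1, close to the shares over all genes. *LAPTM4A*, a small transmembrane protein of late endosomes, was at 39.0 and 37.4 FPKM in Parent, 34.8 and 35.4 FPKM with NC-1, and 14.9 and 13.9 FPKM with miR-4711-5p (-1.23, limma adjusted p = 1.01e-05 against NC-1, and -1.35, limma adjusted p = 5.88e-06 against Parent). *LAMP3*, an interferon-inducible relative of *LAMP1*, rose from 0.944 and 1.14 FPKM with NC-1 to 3.79 and 3.11 FPKM (1.12, limma adjusted p = 0.000602), with Parent at 0.440 and 0.504 FPKM (1.59, limma adjusted p = 0.000108). *LAPTM4A* fell in both comparisons and *LAMP3* rose. *GALC*, galactosylceramidase, differed by -0.57 from NC-1 (limma adjusted p = 0.000835) and by -0.31 from Parent (0.0102, lost without Parent 1 or miR-4711-5p 1 at 0.0647 and 0.0814).

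**Figure D4:**
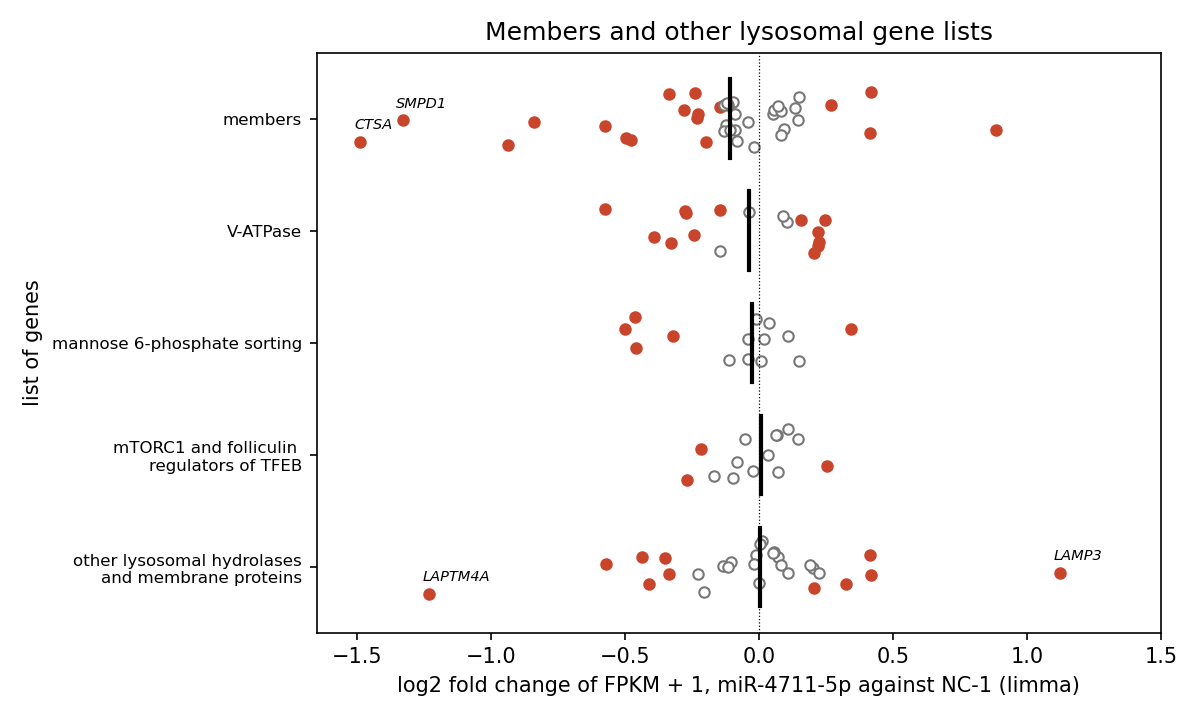
limma log2 fold change of FPKM + 1, miR-4711-5p against NC-1, for the tested lysosomal genes described first (members) and 4 lists of other lysosomal genes; each point is a gene, filled where it passed an adjusted p of 0.05, and vertical bars are list medians. The median lies at -0.106 for the members and near 0 in the 4 lists, and *LAPTM4A* and *LAMP3* stand apart.

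Seed matches to miR-4711-5p in a 3′ UTR were found in 5 of the 39 tested genes (12.8%), *CTSA*, *SMPD1*, *CTSZ*, *LAMP2* and *NPC1*, compared with 2180 of 10593 tested genes with an annotated 3′ UTR (20.6%). Of the 5, *CTSA* and *SMPD1* were lower than both controls, *LAMP2* was lower than NC-1 only, *CTSZ* lower than Parent only, and *NPC1*, whose site lies in 1 of 6 transcripts and not in the canonical one, was higher than Parent. *CTSA* was the only one of the 39 with an 8mer, which lies in its canonical 3′ UTR but not in its longest annotated one. Over all genes, the median log2 difference against NC-1 was -0.183 for the 424 genes with an 8mer, -0.095 with a 7mer-m8, -0.082 with a 7mer-A1 and 0.023 for the 8413 genes without a site. The differences of *CTSA* (-1.49) and *SMPD1* (-1.33) lay below the 5th percentile of their site classes, -1.12 for 8mers and -0.94 for 7mer-m8 sites. The study had picked *CTSA* as a potential target from these same data, by its fall and a seed site. Its place among genes with a site is therefore not independent of that choice.

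**Figure D5:**
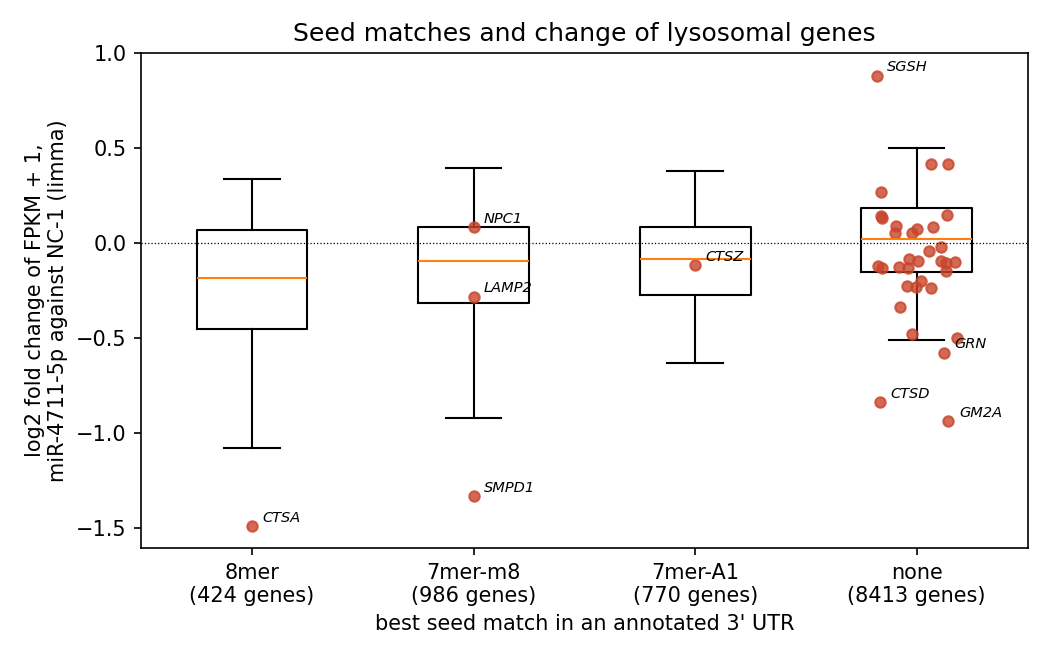
limma log2 fold change of FPKM + 1, miR-4711-5p against NC-1, by the best seed match in an annotated 3′ UTR; boxes give the median and quartiles of all genes of a class, whiskers its 5th and 95th percentiles, and points are the lysosomal genes. *CTSA* and *SMPD1* lie below the whiskers of their classes, and *CTSD*, *GM2A* and *GRN* lie below that of the genes without a match.

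Of the lysosomal genes lower than both controls, 9 of 11 had no match in a 3′ UTR. Whatever their change, 34 of the 39 genes (87.2%) had none, compared with 79.4% of all genes with an annotated 3′ UTR. A search of coding sequences, added after the data had been seen, found a match in 11 of the 39 genes (28.2%), compared with 24.9% of all genes. Among them, *CTSD*, *GM2A* and *GUSB* each had an 8mer, shown here with matched bases in capitals on the strand of the transcript (minus for *CTSD* and *GUSB*, plus for *GM2A*; GRCh37):
CTSD coding 8mer, chr11:1778599-1778606: ccgtcttcgacaacCTGATGCAgcagaag
GM2A coding 8mer, chr5:150632787-150632794: tcccgatgcagtccCTGATGCAggctccc
GUSB coding 8mer, chr7:65441033-65441040: tctggtggccgtacCTGATGCAcgaacgc
The same 8 bases went with different changes: *CTSD* and *GM2A* were lower than both controls, whereas *GUSB* passed neither test (-0.13, limma adjusted p = 0.0852 against NC-1). Over all genes, 23.2% of the 366 with a coding 8mer and no 3′ UTR match were lower than both controls, against 12.4% of the 6425 with no match in either. *MANBA* had a pair of shorter coding matches, while *TPP1*, *HEXA*, *NPC2*, *GRN*, *LAMP1* and *CD63* had a match in neither region. A match is a description of sequence, and binding was not measured here.

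The promoters were searched for the E-box CACGTG, which reads the same on both strands, in windows of 300 bases from 250 before to 50 after the start (RefSeq, GRCh38.p14). It was present in 12 of 46 promoter windows of the lysosomal genes (26.1%), compared with 9.36% of the windows of all genes tested and 7.26% of all 35116 windows. By gene, 11 of the 31 members with an entry had it (35.5%), against 12.7% of genes tested. The longer form with GT before and AC after CACGTG, which contains the E-box, was found in *GAA*, *GALNS* and *MCOLN1*, 3 of the 46 windows (6.52%), compared with 0.659% of the windows of genes tested and 0.353% of all windows. *CTSA* and *NEU1*, which moved in opposite directions, both had the E-box, *CTSA* at -42 and -25 and *NEU1* at -126 from the start, while *GLB1* had none in its window. Their windows are shown with the E-box in capitals (*CTSA* on the plus strand, *NEU1* on the minus strand):
CTSA promoter, chr20:45891085-45891384: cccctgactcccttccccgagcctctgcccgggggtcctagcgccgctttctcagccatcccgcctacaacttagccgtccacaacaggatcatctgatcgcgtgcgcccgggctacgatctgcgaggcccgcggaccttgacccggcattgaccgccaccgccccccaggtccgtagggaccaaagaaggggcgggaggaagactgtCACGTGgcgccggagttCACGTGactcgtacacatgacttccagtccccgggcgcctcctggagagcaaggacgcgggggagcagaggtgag
NEU1 promoter, chr6:31862772-31863071: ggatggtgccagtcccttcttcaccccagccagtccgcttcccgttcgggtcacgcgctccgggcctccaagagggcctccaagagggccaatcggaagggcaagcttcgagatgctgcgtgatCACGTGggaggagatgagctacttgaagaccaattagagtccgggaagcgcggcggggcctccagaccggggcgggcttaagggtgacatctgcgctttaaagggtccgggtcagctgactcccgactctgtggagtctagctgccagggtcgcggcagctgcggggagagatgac
Of the 9 genes lower than both controls that had an entry, 4 held an E-box (*CTSA*, *CTSD*, *LAMP1* and *CD63*), as did 1 of 2 genes higher than both (*NEU1*) and 3 of the 10 that passed neither test (*GAA*, *GALNS* and *MCOLN1*).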

How the data were processed

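RNA was sequenced by the authors from 6 BxPC-3 libraries with a stranded mRNA kit in 75-base single-end mode and mapped to hg19. The submitters' processing notes name TopHat2 2.1.1, Bowtie2 2.3.5.1, SAMtools 1.2, Cuffdiff and Cufflinks 2.2.1, and the methods of the study give other versions of some of these tools. The gene annotation, the strand option and the normalization option are not given in the sources used here. The deposited files list 1 FPKM value a symbol, scaled by the authors to gene length and library size; the FPKM of a library summed to 493145 to 550772. FPKM are not counts, so depth is unknown and no count model was used.

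A filter at a mean of 1 FPKM kept 12040 genes, which were tested on log2(FPKM + 1) with limma 3.58.1 (R 4.3.3; all 3 groups in one fit, eBayes with a trend, 3 residual and 4.15 prior degrees of freedom). Tests were two-sided with Benjamini-Hochberg adjustment over the 12040 genes at 0.05. The pseudocount of 1 understates changes of low genes, and folds given as such are ratios of mean FPKM. The script was checked on simulated data with known changes. The members and gene lists were chosen with earlier results of these data known. Values in every library are given for *CTSA*, *NEU1*, *GLB1*, *TFEB*, *TFE3*, *LAMP1*, *LAMP2* and *CD63*, and for up to 8 further members with the largest fall and rise among those called in the same direction against both controls. Library values of other members were added after they were seen. From each other list, up to 3 genes with the largest change among those called against both controls are named, and genes with FPKM values whose exons overlap a member called against both. *IFIT2* and *IFIT3*, which overlap *LIPA*, were added after their values were seen. Same-numbered libraries did not deviate together (correlations of 0.061, 0.00301 and -0.00892), so the numbers were not used as pairs.

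All 42 symbols were matched to GENCODE v44 lifted to GRCh37, the build of hg19. Seed matches were searched in annotated 3′ UTRs of coding transcripts, and promoters and the miRNA were taken from RefSeq tables of GRCh38.p14, with no conversion between builds. Of the 42 genes, 31 had a promoter entry. Python 3.11.15, pandas 2.3.3, numpy 2.4.6 and matplotlib 3.10.9 were used.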

Additional observations from a re-analysis of the deposited data

How the results depend on the processing

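With 2 libraries a group, small changes were not detectable, and a group left with 1 library was assumed to vary like the others. The falls of *CTSA*, *CTSD*, *SMPD1*, *GM2A* and *GRN* and the rises of *NEU1*, *IDS* and *SGSH* against both controls kept an adjusted p under 0.05 in every alternative fit, whereas *TPP1*, *HEXA*, *MANBA*, *NPC2*, *LAMP1* and *CD63* lost 1 or both calls under at least 1. No called gene changed direction. Counts below are given as higher, then lower, and where no stricter limit or smaller number of libraries accounts for a change, the cause was not tested.

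Requiring a change of 1.5-fold left 1 and 4 of the 39 genes against NC-1 and 1 and 4 against Parent. For NC-1 against Parent, this limit left 0 and 1. For the 74 other lysosomal genes it left 1 and 1, 3 and 2, and 0 and 0. The share of all genes that reached the limit was not counted. Setting every library to the same FPKM sum changed the median of all genes from 0.004 to 0.0556 (miR-4711-5p against NC-1), from -0.013 to 0.115 (against Parent) and from -0.01 to 0.0694 (NC-1 against Parent); calls over all genes changed from 2214 higher and 2549 lower to 2916 and 2082, from 2255 and 2975 to 4014 and 1783, and from 1456 and 1823 to 2349 and 1002. Under this setting, the miR-4711-5p comparison with Parent gave 7 lower members, and 30 higher and 8 lower among the other genes. The 8 higher members of the main fit stayed called, and *LGMN*, *NAGLU*, *ARSA* and *TFE3* joined them. Higher members thus outnumbered lower ones, the reverse of the main fit. NC-1 against Parent gave 14 higher members, and 19 higher and 1 lower among the other genes. For NC-1 against Parent, testing without a filter left 5 of the 39 higher, and 5 of the other genes higher and 1 lower. Over all 19158 genes of that fit, 989 were higher and 1176 lower. Fitting only the 2 groups left 6 and 1 of the other genes, with 998 higher and 1254 lower over all 12040 genes.

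With the replicate number as a block, which does not pair these libraries, 3 member calls were lost (*ARSB*, *SCARB2* and *SGSH*, each in NC-1 against Parent), and 1 of the other genes was lower with NC-1 than in Parent instead of 3.

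Leaving out 1 library at a time lowered the number of calls over all genes in every comparison, and member calls were lost as described for each gene. The median log2 difference of the 39 genes then ranged from -0.126 to -0.082 against NC-1, where that of all genes ranged from 0.00182 to 0.00405. Against Parent it ranged from -0.092 to -0.07, with all genes at -0.0147 to -0.0117. For the other genes the ranges were 5 to 12 and 10 to 19, 10 to 15 and 12 to 18, and 3 to 7 and 0 to 1. The log2 difference of *CTSA* ranged from -1.52 to -1.46 against NC-1, from -1.29 to -1.23 against Parent, and from 0.19 to 0.26 for NC-1 against Parent.

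Members with a seed match numbered 5 in any 3′ UTR, 3 in the longest 3′ UTR, 1 with 8mers only, and 11 in coding sequences, the last an alternative chosen after seeing the data. The 3 with a match in the longest 3′ UTR were *CTSZ*, *SMPD1* and *LAMP2*. *CTSA* had no match in its longest annotated 3′ UTR, although its canonical 3′ UTR held both.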
